A study of Mus musculus with 9 samples.

Results

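The transcripts of 43 genes of the lysosome were examined in cultured mouse mast cells at rest, after IgE, and after IgE followed by antigen. The 43 genes are a fixed list of digestive enzymes, lipid activator and cholesterol export proteins, membrane proteins, subunits of the proton pump, and the transcription factors Tfeb and Tfe3. All 43 were found among the 23951 gene symbols of the table. The rule that lists them uses no measured value, but the list was drawn up with earlier results on these data known.

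Lysosomes are acidic compartments in which proteases, glycosidases, sulfatases and lipases break down material delivered by endocytosis and autophagy. The vacuolar proton pump (V-ATPase) keeps them acidic by turning a membrane sector, V0, with ATP hydrolysed by a cytosolic sector, V1. TFEB and TFE3 are basic helix-loop-helix factors that move from the lysosome surface to the nucleus when mTORC1 is inactive, and that bind a palindromic motif, called CLEAR, near the start of many lysosomal genes. The secretory granule of the mast cell is itself a lysosome-related organelle: it holds β-hexosaminidase and other acid hydrolases beside histamine and serine proteases, and it is emptied when antigen cross-links IgE on its receptor.

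The cells were bone marrow-derived mast cells (BMMCs) of wild-type C57BL/6 mice, grown for 4 to 6 weeks with IL-3 and SCF at 10 ng/ml each, and more than 95% of them carried FcεRI and CD117 according to the labels. Each of 3 groups had 3 libraries: untreated cells, cells given IgE at 0.5 µg/ml for 18 h, and cells given the same IgE and then antigen (DNP-BSA, 50 ng/ml) for 2 h. No label says that the libraries of a group came from separate cultures or animals, so p-values measure the spread between these libraries, which may be technical. Levels are given as FPKM, fragment counts scaled to transcript length and library size, so they may be ranked between genes.

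Between 10190 and 10645 genes reached 1 FPKM in a library, and the depth estimated from the spacing of low values was 29800000 to 33000000 reads for untreated, 31800000 to 39300000 for IgE and 20700000 to 28300000 for antigen. Antigen replicate 3 listed 0 for 441 of 441 X and Y genes detected in each of the remaining 8 libraries, and for 62 of 12970 such autosomal genes. The 0 of the 4 X-linked genes Gla, Lamp2, Atp6ap1 and Tfe3 in that library was therefore treated as missing, and their antigen values rest on 2 libraries. IgE replicate 3 stood farthest from the rest of its group. The median absolute deviation of its log2 differences from their mean, scaled to estimate a standard deviation, was 0.146. The values of all other libraries ran from 0.064 to 0.098. The mast cell markers Kit, Fcer1a, Ms4a2, Tpsb2, Gata2 and Srgn had group means of 196 FPKM (Gata2 after IgE) or more, while Cpa3 and Cma1, which mast cells normally express, were listed at 0 in all 9 libraries.

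In untreated cells 12 of the 43 genes averaged 100 FPKM or more, 17 lay between 20 and 100 FPKM, 10 between 1 and 20 FPKM and 4 under 1 FPKM. Ctsd, which encodes the aspartic protease cathepsin D, was the most abundant, at 2024, 1999 and 2160 FPKM in untreated, 2222, 2306 and 2066 FPKM after IgE, and 2659, 2562 and 2668 FPKM after antigen. It ranked 12th of all genes in untreated cells, and its antigen libraries lay above every other library. Lamp1, a heavily glycosylated protein of the lysosomal membrane, came next at 206, 226 and 223 FPKM in untreated, 201, 203 and 197 FPKM after IgE, and 192, 180 and 185 FPKM after antigen. Hexa, the α subunit of β-hexosaminidase, followed at 132, 137 and 141 FPKM in untreated, 162, 168 and 148 FPKM after IgE, and 179, 178 and 181 FPKM after antigen. The next mean in the untreated order, Psap at 130 ± 7.29 FPKM (SD, n = 3), overlapped that of Hexa (137 ± 4.25 FPKM, SD, n = 3).

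**Figure D1:**
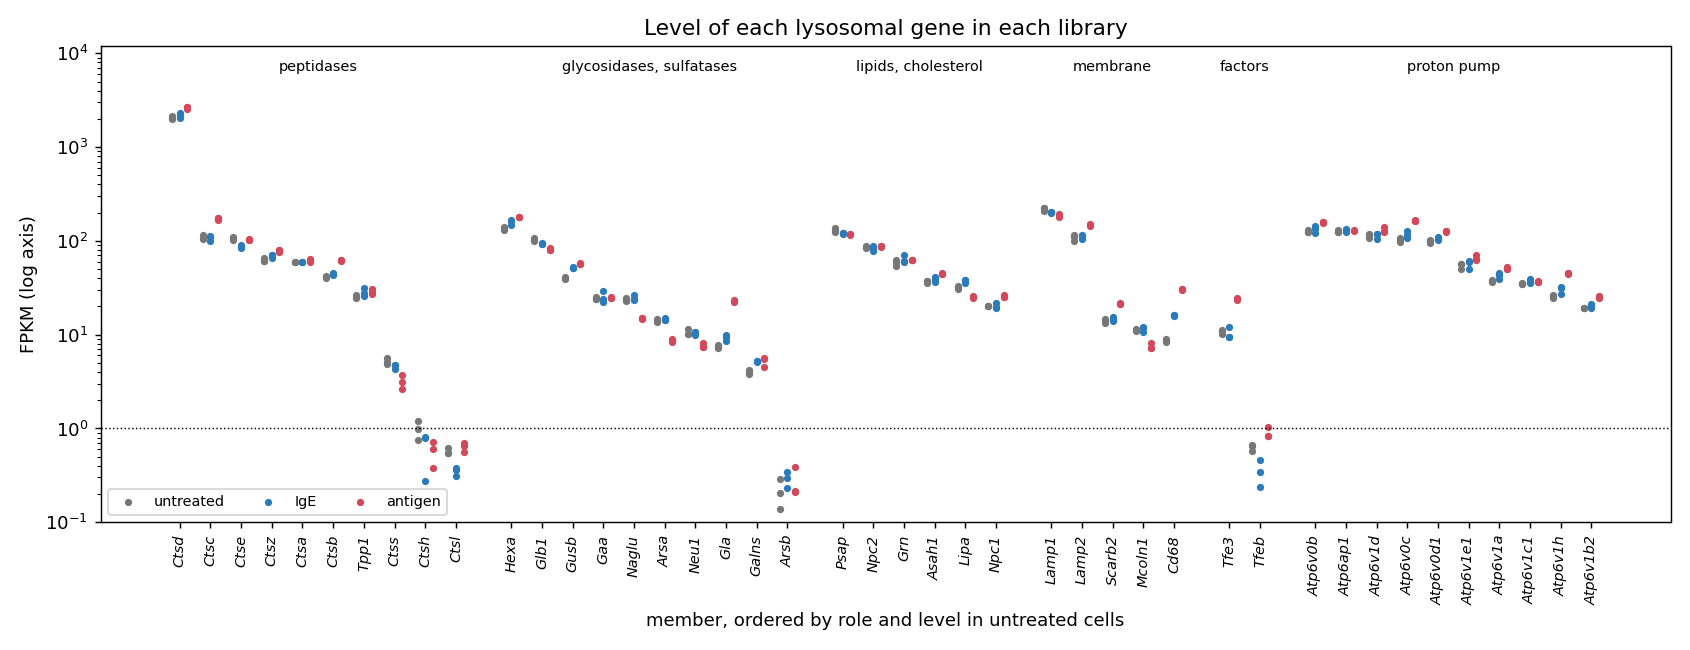
FPKM (log axis) of each of the 43 genes in each library, 1 point per library, coloured by group and ordered by role and untreated level; the dotted line marks 1 FPKM. Ctsd stands alone at the top, and Ctsh, Ctsl, Arsb and Tfeb lie around or under 1 FPKM.

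At the other end stood 4 genes that did not reach 1 FPKM in 3 libraries and were not tested. Tfeb, the best-known regulator of lysosomal genes, was at 0.643, 0.672 and 0.573 FPKM in untreated, 0.344, 0.464 and 0.238 FPKM after IgE, and 0.827, 1.03 and 0.841 FPKM after antigen. Its 3 groups did not overlap, but these levels are too low for the test. The aminopeptidase gene Ctsh was at 0.989, 0.760 and 1.204 FPKM in untreated, 0.782, 0.810 and 0.274 FPKM after IgE, and 0.381, 0.606 and 0.710 FPKM after antigen; the IgE libraries overlapped both other groups, and the antigen libraries lay below the untreated ones. Ctsl, a cysteine protease, was at 0.545, 0.616 and 0.548 FPKM in untreated, 0.383, 0.309 and 0.364 FPKM after IgE, and 0.700, 0.565 and 0.646 FPKM after antigen, the IgE libraries being the lowest. Arsb, the sulfatase of dermatan sulfate, was at 0.206, 0.139 and 0.289 FPKM in untreated, 0.294, 0.232 and 0.339 FPKM after IgE, and 0.216, 0.211 and 0.384 FPKM after antigen, again with overlap. At 1 FPKM the counting error alone is 15.5% for a transcript of 2 kb in the shallowest library, against 4.91% at 10 FPKM.

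With antigen these genes moved in both directions. With limma on log2(FPKM + 1), fitted over all 10890 genes that reached 1 FPKM in 3 libraries and called at a Benjamini-Hochberg adjusted p under 0.05, 22 of the 39 tested genes rose and 7 fell between IgE and antigen. The background was wide: 37.6% of all tested genes rose and 36.2% fell in the same comparison, 73.8% together, so the share of the 39 that was called was close to it. The median change of the 39 was 0.19 on the log2 scale and that of all tested genes 0.01. Most changes were modest, with a median size of 0.39 among the 29 called genes, and 2 of them, Gla and Tfe3, rose by 1 or more.

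The direction of the smaller changes depended on how libraries were scaled. Under quantile normalization 9 of the 39 rose and 16 fell between IgE and antigen, against 3331 and 4656 of all 10890 tested genes. All tested genes showed a drift with level: their median log2 change ran from -0.11 under 5 FPKM and -0.04 at 5 to 20 FPKM to 0.14 at 50 to 100 FPKM and 0.21 at 100 to 200 FPKM (level ranges chosen after the data were seen), and quantile normalization turned the median of the 100 to 200 FPKM genes to -0.13. In that last range 7 of 9 lysosomal genes rose, against 58.5% of all 390 tested genes there. The rises of Atp6v0b (0.25), Atp6v0d1 (0.24) and Atp6v1d (0.20) lay close to the median of that range. Those of Atp6v0c (0.50, same range) and of Atp6v1a (0.25), Atp6v1b2 (0.30) and Atp6v1h (0.57), where the median at 20 to 50 FPKM was 0.04, lay above theirs. Of the 22 genes that rose, 9 rose under quantile normalization too: Ctsb, Ctsc, Gla, Npc1, Cd68, Scarb2, Tfe3, Atp6v1b2 and Atp6v1h. All 7 that fell (Ctss, Glb1, Naglu, Arsa, Neu1, Lipa and Mcoln1) also fell under it.

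**Figure D2:**
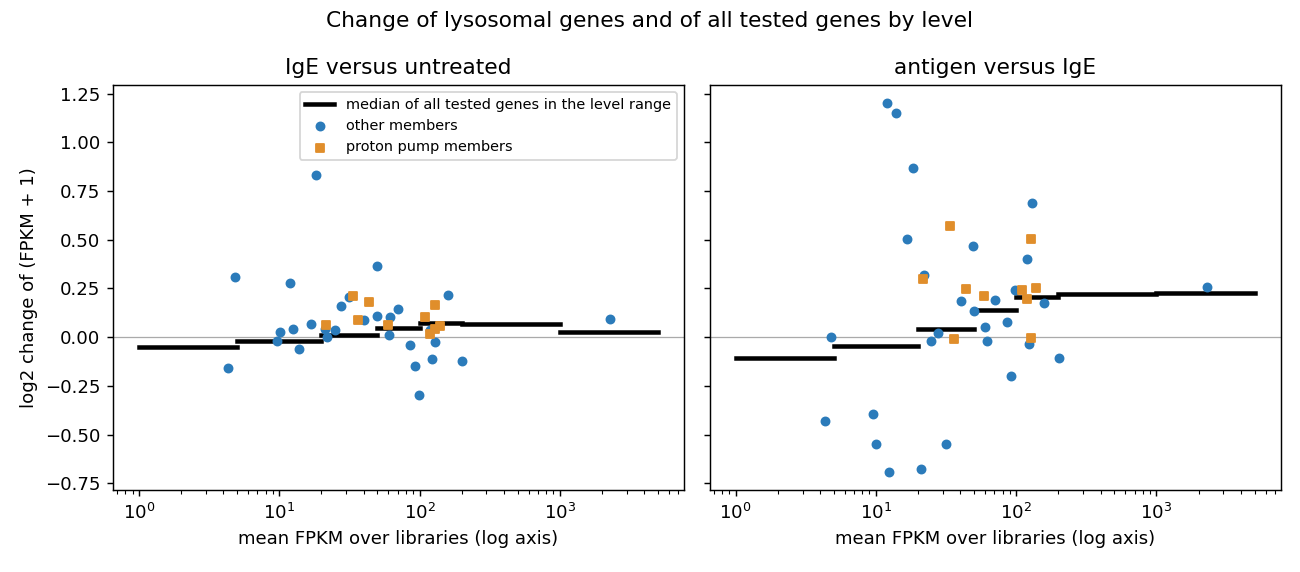
Log2 change of (FPKM + 1) against the mean FPKM over libraries (log axis) for the 39 tested genes, proton pump members as squares, with bars for the median of all tested genes in each level range. In the antigen panel the bars climb from -0.11 to 0.22, pump members lie on both sides of them, Atp6v0c and Atp6v1h well above, and Gla, Tfe3 and Cd68 lie far above.

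IgE without antigen changed fewer of the genes. Between untreated and IgE 8 of 39 rose (Hexa, Gla, Gusb, Galns, Lipa, Cd68, Atp6v1a and Atp6v1h) and 2 fell (Ctse and Glb1), against 15.9% of all tested genes rising and 14.2% falling. The median change was 0.06 against -0.01 for all tested genes. Quantile normalization left 8 rising and made 5 fall, against 1688 and 1737 of all 10890 tested genes (1727 and 1546 without it). Leaving out IgE replicate 3 gave 13 rising and 3 falling, against 2211 and 2155 of all tested genes. Over both steps, from untreated to antigen, 23 rose and 9 fell with a median of 0.28 (0.02 for all tested genes), where 38.7% of all tested genes rose and 35.6% fell, 74.3% together. Quantile normalization gave 13 rising and 14 falling, against 3406 and 4501 of all 10890 tested genes. The 3 comparisons share libraries, so these counts are not independent of each other.

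**Figure D3:**
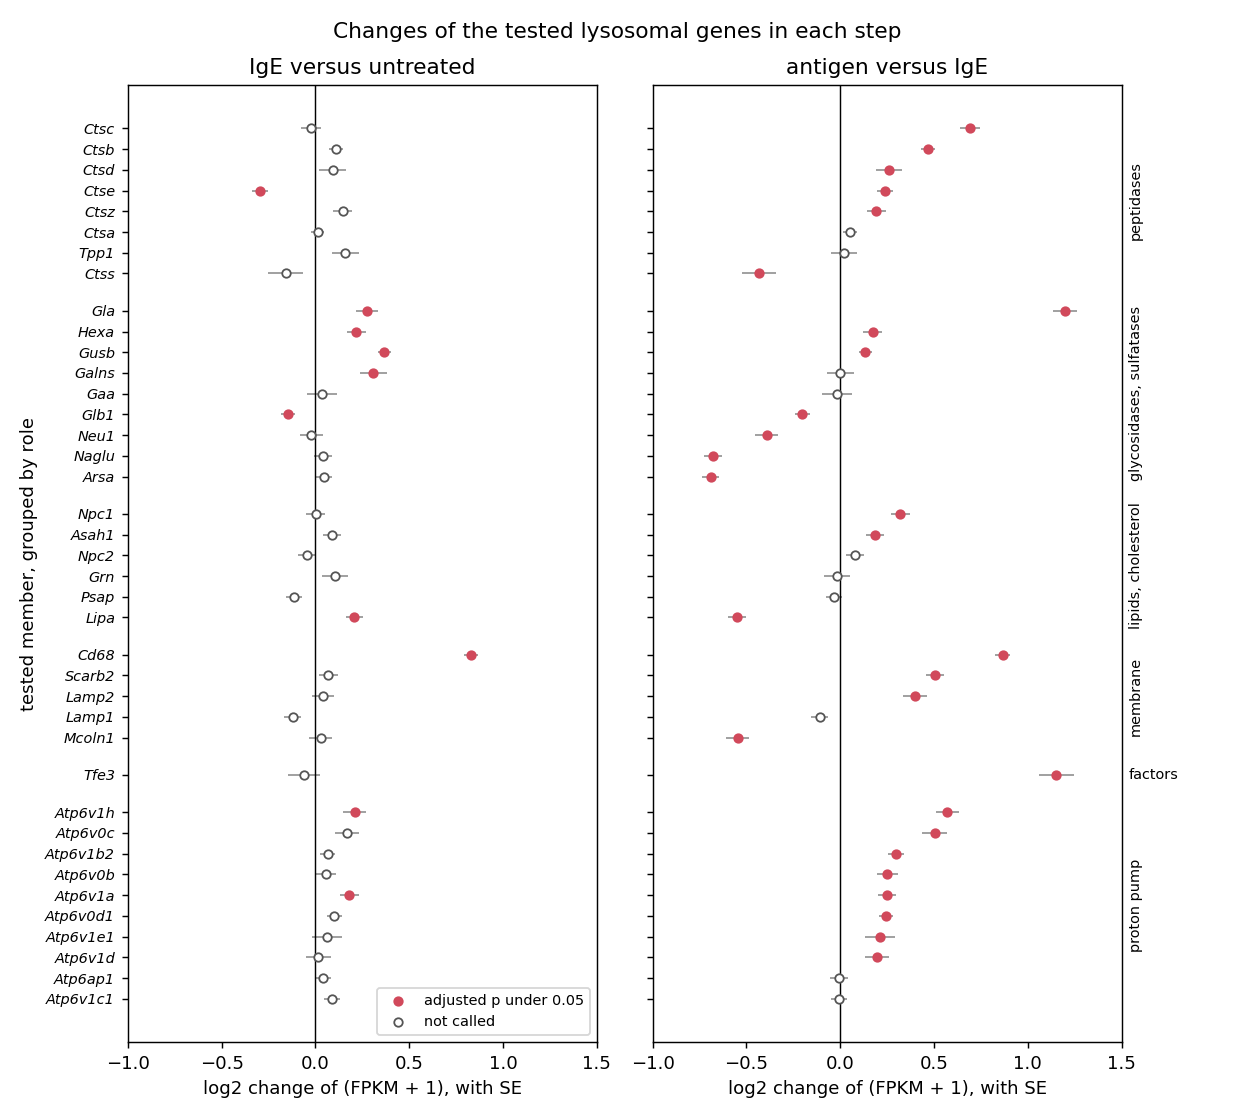
Log2 change of (FPKM + 1) with its standard error for each of the 39 tested genes, grouped by role, from untreated to IgE (left) and from IgE to antigen (right); filled points passed the adjusted p of 0.05. The right panel spreads from -0.69 (Arsa) to 1.20 (Gla), the left from -0.30 (Ctse) to 0.83 (Cd68).

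Of the 2 transcription factors, Tfe3 was the one expressed at a tested level. It stood at 11.2, 10.1 and 10.9 FPKM in untreated, 9.38, 9.56 and 12 FPKM after IgE, and 23.7 and 24.4 FPKM in the 2 usable antigen libraries. Both antigen libraries were far above all 6 others, while the untreated and IgE libraries overlapped. The mean rose 2.33-fold with antigen (log2 change of FPKM + 1 of 1.15, SE 0.0938, limma adjusted p = 2.73e-06) and was 0.959 of untreated after IgE (adjusted p = 0.619). Without IgE replicate 3, its highest IgE library, the difference between IgE and untreated was -0.17 (adjusted p = 0.0329).

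The CLEAR core was looked for in the promoters of the 43 genes, in RefSeq sequences of build GRCm38.p6 that run from 250 bases before to 50 bases after the start site. A promoter entry was matched for 34 of the 43. The palindrome TCACGTGA, which reads the same on both strands and contains the shorter CACGTG, occurred in 6 of these 34 genes (17.6%: Atp6v0d1, Atp6v1a, Ctsa, Ctsd, Gla and Mcoln1), against 1.12% of the 27025 genes of the promoter table. CACGTG alone or within it occurred in 13 of 34 (38.2%) against 8.09%. A palindrome of 10 bases, TCACGTGA with G before it and C after it, was searched for too. That longer form occurred in 0 of the 34 genes, against 0.37% of the 27025 genes. At so low a share 34 genes are too few to show whether they lack it. The 250 bases before the start are shown for the gene with the largest rise (Gla), the most abundant gene (Ctsd), a pump subunit (Atp6v1a), a gene that fell (Mcoln1) and Lamp1, which holds CACGTG 4 times, with CACGTG and TCACGTGA in capitals. They lie at chrX:134601006-134601255 (minus strand, Gla), chr7:142387828-142388077 (minus strand, Ctsd), chr16:44139260-44139509 (minus strand, Atp6v1a), chr8:3500269-3500518 (plus strand, Mcoln1) and chr8:13158911-13159160 (plus strand, Lamp1).
Gla: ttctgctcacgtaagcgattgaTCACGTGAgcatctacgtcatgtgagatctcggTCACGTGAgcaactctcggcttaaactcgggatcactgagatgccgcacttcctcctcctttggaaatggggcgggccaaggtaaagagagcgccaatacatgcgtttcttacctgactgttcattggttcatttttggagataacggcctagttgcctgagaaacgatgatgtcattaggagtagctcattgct
Ctsd: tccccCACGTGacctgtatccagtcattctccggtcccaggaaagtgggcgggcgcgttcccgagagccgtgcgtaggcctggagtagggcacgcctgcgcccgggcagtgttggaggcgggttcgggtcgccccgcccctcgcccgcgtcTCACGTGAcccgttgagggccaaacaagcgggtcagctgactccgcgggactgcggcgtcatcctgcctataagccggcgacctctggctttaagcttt
Atp6v1a: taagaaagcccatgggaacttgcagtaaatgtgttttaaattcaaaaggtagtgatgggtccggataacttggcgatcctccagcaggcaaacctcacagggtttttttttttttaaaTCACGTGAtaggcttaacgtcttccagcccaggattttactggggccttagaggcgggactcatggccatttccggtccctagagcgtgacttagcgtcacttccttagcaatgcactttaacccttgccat
Mcoln1: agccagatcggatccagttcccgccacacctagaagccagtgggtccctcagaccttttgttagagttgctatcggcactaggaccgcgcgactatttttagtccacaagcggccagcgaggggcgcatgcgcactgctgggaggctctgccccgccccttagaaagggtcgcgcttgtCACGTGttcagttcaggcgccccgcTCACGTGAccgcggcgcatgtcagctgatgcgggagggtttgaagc
Lamp1: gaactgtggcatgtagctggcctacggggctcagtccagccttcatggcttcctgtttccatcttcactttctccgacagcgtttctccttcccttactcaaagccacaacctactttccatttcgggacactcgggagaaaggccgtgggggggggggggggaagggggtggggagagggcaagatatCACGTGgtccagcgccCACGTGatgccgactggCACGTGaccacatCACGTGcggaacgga

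Gla holds 2 copies of TCACGTGA, centred 224 and 191 bases before its start, and Mcoln1 holds CACGTG at 68 and TCACGTGA at 42 bases before its start. In Lamp1 the 4 copies of CACGTG are centred 58, 42, 25 and 12 bases before the start. Genes with the motif moved in both directions. Of the 6 tested genes with TCACGTGA, 4 rose from IgE to antigen (Gla, Ctsd, Atp6v1a and Atp6v0d1), Mcoln1 fell and Ctsa was not called. Of 6 tested genes with CACGTG only, 1 rose and 3 fell, and of 19 with neither, 11 rose and 3 fell. Of the 8 tested genes without a promoter entry 6 rose and 0 fell. Among all tested genes, with or without the motif, 37.6% rose and 36.2% fell. Classes of 6 genes are too small to show whether direction differs with the motif. These matches describe letters in a window, and binding of a factor was not measured.

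Between IgE and antigen 8 of the 10 proton pump genes among the 43 rose and none fell (2 rose and 3 fell under quantile normalization), with a median of 0.25 and a range from -0.01 to 0.57. Of all tested genes 37.6% rose and 36.2% fell, or 3331 and 4656 of 10890 under quantile normalization. In the level ranges from 20 to 200 FPKM, where these 10 lie, 41.7% to 58.5% of all tested genes rose, or 25.8% to 30.9% under that scaling. Atp6v1h, the regulatory H subunit of V1, was at 24.5, 26.7 and 26.1 FPKM in untreated, 31.2, 32.0 and 26.9 FPKM after IgE, and 45.5, 44.1 and 45.3 FPKM after antigen. Its 3 groups did not overlap, although IgE replicate 3 came close to the untreated libraries. It rose 1.17-fold with IgE (log2 change 0.21, SE 0.062, adjusted p = 0.0282) and 1.5-fold from IgE to antigen (0.57, SE 0.062, adjusted p = 1.19e-05). The IgE step missed the threshold without untreated replicate 1 or 3 or IgE replicate 1 or 2, with adjusted p from 0.064 to 0.105.

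Atp6v0c, the proteolipid that forms most of the rotating ring of V0, averaged 103 ± 5.66 FPKM in untreated, 117 ± 11.0 FPKM after IgE and 165 ± 1.05 FPKM after antigen (SD, n = 3). It rose 1.42-fold from IgE to antigen (0.50, adjusted p = 4.38e-05), and the change fell to 0.15 with an adjusted p of 0.109 under quantile normalization. The other rises were 1.24-fold for Atp6v1b2 and 1.15- to 1.19-fold for Atp6v0b, Atp6v0d1, Atp6v1a, Atp6v1d and Atp6v1e1. Atp6v1a and Atp6v1b2 are the A and B subunits that hydrolyse ATP. Atp6v1a also rose 1.14-fold with IgE, from 37.4 ± 0.721 to 42.6 ± 2.76 FPKM (adjusted p = 0.0178, and 0.058 to 0.0658 without untreated replicate 1 or IgE replicate 1 or 2). The antigen calls of Atp6v1d and Atp6v1e1 were lost without IgE replicate 3 (adjusted p = 0.0542 and 0.0995). That of Atp6v1d was also lost without antigen replicate 1 (0.079) and that of Atp6v1e1 without antigen replicate 3 (0.12). Both calls were lost under median centring. Under quantile normalization Atp6v1d was called as a fall (-0.13, adjusted p = 0.0324).

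Atp6v1c1, the C subunit that links V1 to V0, was at 37.1 ± 2.02 FPKM after IgE and 36.9 ± 0.581 FPKM after antigen (adjusted p = 0.867). The X-linked Atp6ap1, an accessory subunit needed for assembly, was at 124, 125 and 130 FPKM in untreated, 131, 134 and 124 FPKM after IgE, and 131 and 127 FPKM after antigen. Its groups overlapped throughout. The 2 pump genes that rose under quantile normalization were Atp6v1b2 and Atp6v1h.

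Over all 19 tested subunit genes 15 rose and 1 fell between IgE and antigen. Of all tested genes 37.6% rose (58.5% at 100 to 200 FPKM) and 36.2% fell. Under quantile normalization 7 of the 19 rose and 5 fell, against 3331 and 4656 of all 10890 tested genes. Atp6v0d2, an alternative d subunit of V0, was at 4.86, 4.11 and 4.92 FPKM in untreated, 8.17, 7.41 and 6.28 FPKM after IgE, and 28.8, 27.6 and 28.0 FPKM after antigen. It rose with IgE (0.55, adjusted p = 0.00104) and rose 3.86-fold from IgE to antigen (1.82, SE 0.0838, adjusted p = 1.42e-08). Its partner in the list, the common d subunit Atp6v0d1, was far more abundant, at 126 ± 2.21 FPKM after antigen, and rose 1.19-fold. Tcirg1, the a3 subunit of V0, fell from 11.3 to 9.70 FPKM with IgE (-0.20, adjusted p = 0.00825) and rose to 26.0 FPKM with antigen (1.33, SE 0.0458, adjusted p = 1.58e-09). The 1 subunit gene that fell, Atp6v0a2, named after its value was seen, went from 18.3 to 15.8 FPKM (-0.20, adjusted p = 0.000505). The list of other pump genes also held assembly factors, of which Wdr7 fell from 11.5 to 7.14 FPKM (-0.62, adjusted p = 1.55e-06). Rogdi of the same list, named after its value was seen, had the largest fall, from 6.93 to 3.56 FPKM (-0.80, adjusted p = 6.12e-05).

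**Figure D4:**
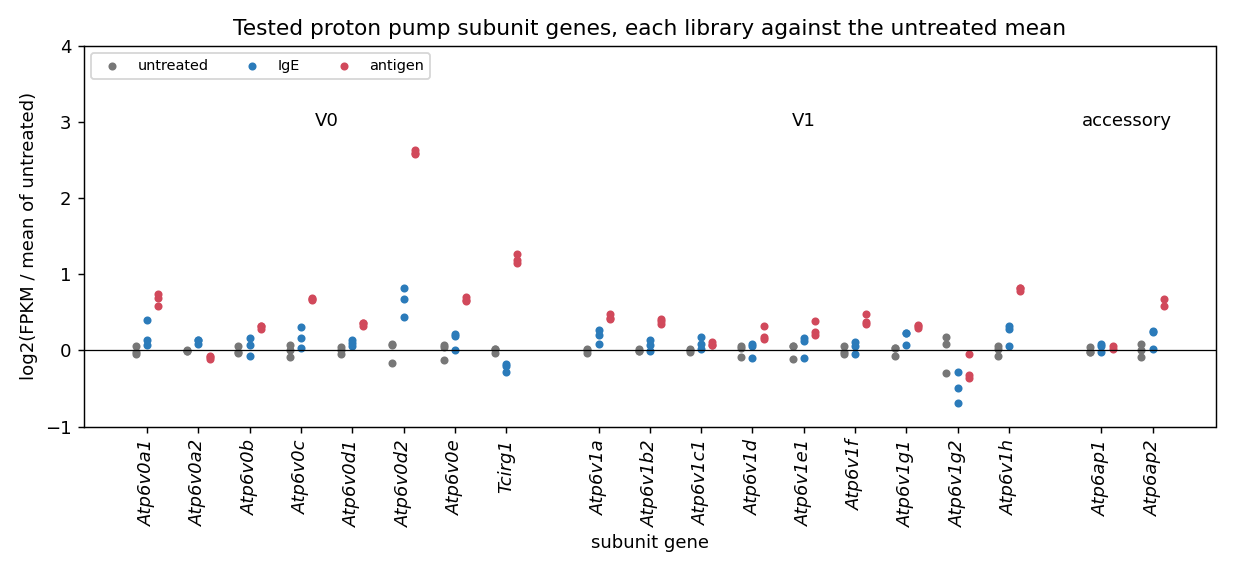
Log2 ratio of each library's FPKM to the untreated mean for the 19 tested pump subunit genes, by sector (V0, V1, accessory), 1 point per library. Atp6v0d2 and Tcirg1 stand highest after antigen, and the antigen libraries of most other subunits lie up to about 0.8 above the untreated mean.

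Among the peptidases 5 of 8 tested genes rose with antigen, 1 fell and 2 were not called (2 rose and 2 fell under quantile normalization). The shares over all tested genes were 37.6% rising and 36.2% falling, or 3331 and 4656 of 10890 genes under quantile normalization. In the level ranges from 50 to 200 FPKM 52.2% to 58.5% rose, or 25.8% to 27.2% under that scaling. The largest rise was in Ctsc, which encodes dipeptidyl peptidase I, the enzyme that activates mast cell chymases and tryptases by trimming their propeptides. It was at 104, 115 and 108 FPKM in untreated, 112, 110 and 99.7 FPKM after IgE, and 175, 168 and 177 FPKM after antigen. The antigen libraries stood clear of all others, and the first 2 groups overlapped. Ctsc rose 1.62-fold from IgE to antigen (0.69, SE 0.0543, adjusted p = 9.28e-07).

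Ctsb, the cysteine protease cathepsin B, rose 1.39-fold, from 44.7 ± 1.24 to 62.2 ± 0.507 FPKM (0.47, SE 0.038, adjusted p = 1.18e-06). Of its annotated exon bases, 16.3% overlap Fdft1 on the opposite strand, and the sources used here do not say whether counting used strand. Fdft1 itself was 26.7 FPKM after IgE and 21.9 FPKM after antigen. Among the 43 genes 6 shared 10% or more of their exon bases with another annotated gene. Besides Ctsb and Arsa (below), Ctsd shared 31.5% with Gm49369 on the same strand. Arsb (up to 48.2%), Ctsl (up to 28.2%) and Ctsa (up to 13.5%) shared theirs with genes on the opposite strand. Ctsd rose 1.20-fold with antigen (0.26, adjusted p = 0.00669), but by 0.05 with an adjusted p of 0.454 under quantile normalization. Ctsz, a carboxypeptidase, rose 1.14-fold, and this call too was lost under that scaling.

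Ctse, an aspartic protease of endosomes, was the peptidase that changed with IgE. It was at 107, 102 and 111 FPKM in untreated, 89.5, 86.3 and 84.7 FPKM after IgE, and 104, 101 and 103 FPKM after antigen. The IgE libraries lay below all others, and antigen and untreated libraries overlapped. It fell by 0.30 on the log2 scale with IgE (SE 0.0414, adjusted p = 0.000695) and rose by 0.24 with antigen (adjusted p = 0.000372), the second step turning to -0.03 under quantile normalization.

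Ctss, which trims the invariant chain of MHC class II in antigen-presenting cells, was the peptidase that fell. It was at 4.89, 5.17 and 5.64 FPKM in untreated, 4.77, 4.72 and 4.26 FPKM after IgE, and 3.13, 2.62 and 3.73 FPKM after antigen. No antigen library reached an IgE library, and none of the IgE libraries reached the untreated ones. It fell by 0.43 from IgE to antigen (SE 0.0921, adjusted p = 0.00158) and by 0.59 from untreated to antigen (adjusted p = 0.000175). Ctsa, the protective protein that stabilises Neu1 and Glb1, stayed within 58.9 to 64.2 FPKM in all libraries, and Tpp1, a tripeptidyl peptidase, within 24.5 to 31.8 FPKM.

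Ctss and Cd68 are also abundant in macrophages, so the macrophage and monocyte list is given beside them. Its summed level was 187 to 199 FPKM in untreated, 145 to 163 FPKM after IgE and 77.9 to 78.9 FPKM after antigen, carried mainly by Ccr2 and Lyz2. Of its 15 genes 8 reached 1 FPKM in at least 1 library and 7 were tested. From IgE to antigen 5 of the 7 fell and 1 rose, where 36.2% of all tested genes fell and 37.6% rose. C1qa and C1qb of this list were at or near 0 in every library, and Csf1r was at 1.05, 0.716 and 0.612 FPKM in the 3 group means. In these bulk samples fewer cells of a type and less RNA per cell cannot be told apart.

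The glycosidases and sulfatases changed in both directions, with 3 of 9 tested genes rising and 4 falling between IgE and antigen (1 and 5 under quantile normalization). The shares of 3 and 4 of 9 were near the 37.6% rising and 36.2% falling among all tested genes. Under quantile normalization 3331 of all 10890 tested genes rose and 4656 fell. Gla, the X-linked α-galactosidase A that removes terminal galactose from globotriaosylceramide, had the largest rise of all 39 genes. It was at 7.60, 7.23 and 7.76 FPKM in untreated, 9.48, 9.95 and 8.59 FPKM after IgE, and 22.3 and 23.2 FPKM in the 2 usable antigen libraries. The 3 groups did not overlap. Gla rose 1.24-fold with IgE (0.28, SE 0.0573, adjusted p = 0.00701) and 2.43-fold from IgE to antigen (1.20, SE 0.064, adjusted p = 1.34e-07).

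Hexa rose 1.17-fold with IgE (0.22, adjusted p = 0.0092) and 1.13-fold with antigen (0.17, adjusted p = 0.00939). Under quantile normalization the antigen change was -0.16 and was called as a fall (adjusted p = 0.0024). Gusb, β-glucuronidase, was at 39.5, 41.6 and 39.9 FPKM in untreated, 51.9, 52.0 and 53.0 FPKM after IgE, and 58.5, 57.3 and 56.6 FPKM after antigen. Each group lay above the one before. It rose 1.30-fold with IgE (0.37, SE 0.035, adjusted p = 8.44e-05) and 1.10-fold with antigen (0.13, adjusted p = 0.00578), the second step being -0.06 under quantile normalization.

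Galns, a sulfatase of keratan and chondroitin sulfate, was at 3.97, 3.8 and 4.24 FPKM in untreated, 5.13, 5.21 and 5.25 FPKM after IgE, and 5.68, 4.49 and 5.5 FPKM after antigen. It rose 1.30-fold with IgE (0.31, SE 0.0739, adjusted p = 0.011), and the antigen libraries then lay on both sides of the IgE libraries (adjusted p = 0.990). Gaa, which degrades glycogen, was at 24.5, 25.3 and 24.8 FPKM in the 3 group means and was not called in any comparison. Its highest library was IgE replicate 3, at 29.5 FPKM, and without it Gaa changed by 0.09 from IgE to antigen (adjusted p = 0.0372).

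Arsa and Naglu fell the most of all 39 genes. Arsa, the sulfatase of sulfatide, was at 14.2, 13.6 and 14.7 FPKM in untreated, 14.3, 14.4 and 15.2 FPKM after IgE, and 8.70, 8.36 and 9.01 FPKM after antigen. It fell by 0.69 from IgE to antigen (SE 0.0464, adjusted p = 2.73e-07). The antisense-oriented transcript C230037L18Rik overlaps 19.8% of its annotated exon bases. Naglu, a hydrolase of heparan sulfate, was at 24, 22.8 and 24.5 FPKM in untreated, 23.5, 23.9 and 26.2 FPKM after IgE, and 15.2, 15.0 and 14.7 FPKM after antigen. It fell by 0.68 from IgE to antigen (SE 0.0489, adjusted p = 4.77e-07). For both genes the untreated and IgE libraries overlapped and the antigen libraries lay below all of them.

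The sialidase gene Neu1 fell by 0.39, from 10.4 ± 0.399 to 7.70 ± 0.428 FPKM (adjusted p = 0.000165). Glb1, β-galactosidase, fell in both steps: it was at 100, 107 and 101 FPKM in untreated, 93.9, 93.1 and 91.8 FPKM after IgE, and 83.2, 79.7 and 79.3 FPKM after antigen. Each group lay below the one before, with changes of -0.15 (adjusted p = 0.0166) and -0.20 (adjusted p = 0.000722). Without untreated replicate 2 the first of these had an adjusted p of 0.0562.

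Of the 6 genes for lipid enzymes, activators and cholesterol export, 2 rose with antigen, 1 fell and 3 were not called (1 rose and 4 fell under quantile normalization). Among all tested genes 37.6% rose and 36.2% fell, or 3331 and 4656 of 10890 under quantile normalization. Lipa, the acid lipase that frees cholesterol and fatty acids from endocytosed lipoprotein, moved in opposite directions in the 2 steps. It was at 31.0, 33.3 and 32.0 FPKM in untreated, 38.1, 38.4 and 35.2 FPKM after IgE, and 24.3, 25.2 and 25.8 FPKM after antigen. It rose by 0.21 with IgE (SE 0.046, adjusted p = 0.00778) and fell by 0.55 with antigen (adjusted p = 1.51e-06), to below all untreated libraries.

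Npc1, the membrane transporter that passes cholesterol out of the lysosome, rose 1.26-fold with antigen, from 20.3 ± 1.52 to 25.6 ± 0.612 FPKM (0.32, adjusted p = 0.000199). Its soluble partner Npc2 was at 83.3 ± 5.19 and 87.9 ± 0.861 FPKM (0.08, adjusted p = 0.157, and 0.0452 without IgE replicate 2). Asah1, acid ceramidase, rose 1.14-fold (0.19, adjusted p = 0.00479), with 0.03 and an adjusted p of 0.502 under quantile normalization. Psap, the precursor of the saposin activators, and Grn, progranulin, were not called with antigen, at -0.03 and -0.02, but fell under quantile normalization, by 0.35 (adjusted p = 4.25e-05) and 0.24 (adjusted p = 0.0216).

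Cd68, a mucin-like protein of lysosomal membranes, had the largest change over both steps. It was at 8.92, 8.30 and 8.63 FPKM in untreated, 16.2, 16.2 and 15.8 FPKM after IgE, and 30.4, 29.6 and 30.5 FPKM after antigen. The groups did not overlap, and the antigen libraries were the highest. It rose 1.87-fold with IgE (0.83, SE 0.0393, adjusted p = 2.17e-06) and 1.87-fold again with antigen (0.87, SE 0.0393, adjusted p = 1.26e-08). The summed macrophage list, carried mainly by Ccr2 and Lyz2, fell in both steps over the same libraries, as given with Ctss. Which cells the Cd68 rise came from was not tested.

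Scarb2, also called LIMP-2, the carrier of glucocerebrosidase, rose 1.45-fold with antigen, from 14.8 ± 0.729 to 21.4 ± 0.272 FPKM (0.50, SE 0.0488, adjusted p = 4.77e-06). Lamp2, X-linked and needed for fusion of autophagosomes with lysosomes, was at 109, 100 and 115 FPKM in untreated, 114, 113 and 105 FPKM after IgE, and 151 and 143 FPKM after antigen. Both antigen libraries were above the other 6. It rose 1.32-fold from IgE to antigen (0.40, SE 0.0648, adjusted p = 0.000354), a call that quantile normalization removed (adjusted p = 0.407). The related Lamp1 changed by -0.11 with antigen (adjusted p = 0.0509), with antigen libraries below all IgE libraries, and by -0.12 with IgE (adjusted p = 0.0684). The antigen change passed the threshold without untreated replicate 1, IgE replicate 3 or antigen replicate 1 (adjusted p = 0.0342, 0.041 and 0.0424), and the IgE change without untreated replicate 1 (0.0345). The antigen change also passed under median centring (-0.15, adjusted p = 0.013), trimmed mean scaling (-0.12, 0.027) and quantile normalization (-0.42, 1.64e-06).

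Mcoln1 encodes TRPML1, the calcium channel of the lysosomal membrane. It was at 11.4, 11.0 and 11.3 FPKM in untreated, 10.6, 12.2 and 11.7 FPKM after IgE, and 7.29, 7.15 and 8.21 FPKM after antigen. The antigen libraries lay below the other 6, which overlapped. It fell by 0.55 from IgE to antigen (SE 0.0621, adjusted p = 1.71e-05). Its relative Mcoln2, from the list of other membrane proteins, rose from 1.08 to 3.31 FPKM (1.05, adjusted p = 6.64e-07).

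**Figure D5:**
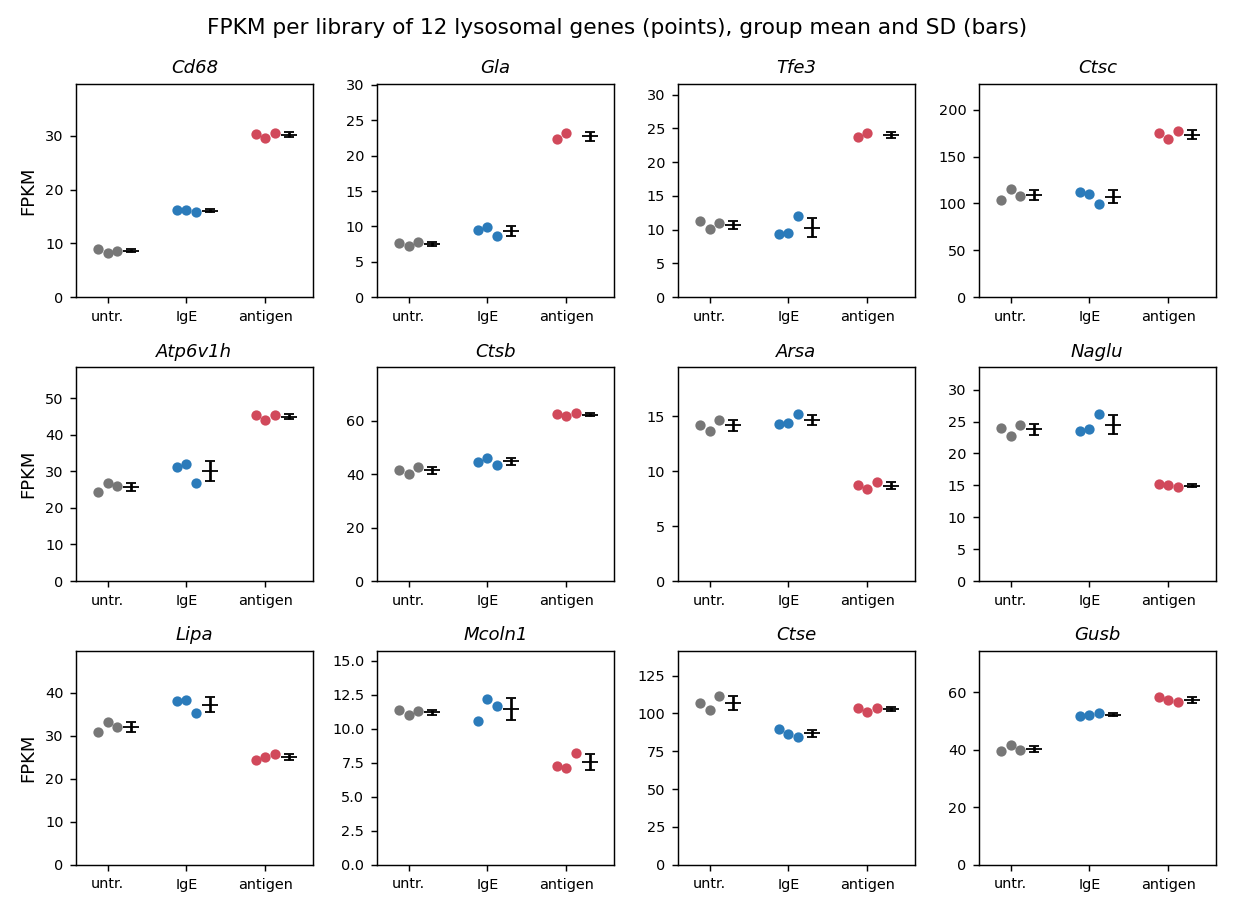
FPKM per library (points, replicates 1 to 3 from left to right) of 12 lysosomal genes in the untreated, IgE and antigen groups, with bars for the mean and SD; Gla and Tfe3 have 2 antigen libraries. Cd68 climbs in both steps, Gla, Tfe3, Ctsc, Atp6v1h and Ctsb are high in the antigen libraries, Arsa, Naglu, Lipa and Mcoln1 are low in them, and Ctse is low in the IgE libraries.

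From untreated to antigen the order of the changes was led by Cd68, which rose 3.50-fold (1.70, SE 0.0393, adjusted p = 8.65e-11). Gla rose 3.02-fold (1.48, SE 0.064, adjusted p = 2.81e-08), Tfe3 rose 2.23-fold (1.09, adjusted p = 3.91e-06) and Atp6v1h rose 1.74-fold (0.78, adjusted p = 9.59e-07). Arsa fell by 0.65 (adjusted p = 4.32e-07), Naglu by 0.63 (adjusted p = 7.57e-07), Ctss by 0.59 and Mcoln1 by 0.52 (adjusted p = 2.47e-05). Lamp1 and Psap were called over both steps and in neither step alone: Lamp1 fell by 0.23 (adjusted p = 0.000921) and Psap by 0.15 (adjusted p = 0.0111). The Psap call was lost without untreated replicate 3 (adjusted p = 0.0511). Tpp1 rose by 0.18 (adjusted p = 0.039), a call lost without untreated replicate 1 or 2 or antigen replicate 2 or 3 (adjusted p from 0.0829 to 0.138) and under median centring, trimmed mean scaling and quantile normalization.

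Lysosomal genes outside the 43 were counted by pathway lists, chosen with earlier results on these data known. Of 35 tested other lysosomal enzymes 6 rose and 15 fell from IgE to antigen, against 37.6% and 36.2% of all tested genes. Under quantile normalization 3 rose and 21 fell, against 3331 and 4656 of all 10890 tested genes. Without that scaling the median of the 35 was -0.03, against 0.19 for the 39 tested genes above. The phospholipase Pla2g15 fell from 32.6 to 12.3 FPKM (-1.34, adjusted p = 4.04e-09), the acid sphingomyelinase Smpd1 from 33.4 to 14.5 FPKM (-1.15, adjusted p = 3.44e-09) and the cysteine protease Ctso from 10.4 to 6.02 FPKM (-0.70, adjusted p = 3.91e-07). With IgE 4 of the 35 rose and 9 fell, against 15.9% and 14.2% of all tested genes. Those that fell included Ctsf, from 12.7 to 7.87 FPKM (-0.63, adjusted p = 0.000181), and Naaa, from 119 to 93.5 FPKM (-0.35, adjusted p = 0.000355). Of 25 tested other membrane proteins 6 rose and 5 fell with antigen (6 and 9 under quantile normalization).

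Of 23 tested genes that deliver hydrolases to lysosomes 6 rose and 10 fell with antigen, against 37.6% and 36.2% of all tested genes. Under quantile normalization 6 rose and 12 fell, against 3331 and 4656 of all 10890 tested genes. M6pr, the cation-dependent mannose 6-phosphate receptor, rose from 139 ± 11.3 to 238 ± 4.37 FPKM (0.77, SE 0.0553, adjusted p = 4.54e-07). Igf2r, the cation-independent receptor, rose from 1.03 to 2.10 FPKM (0.61, adjusted p = 2.9e-06). Vps39, a subunit of the HOPS tether, fell from 42.7 to 30.1 FPKM (-0.49, adjusted p = 6.85e-07). With IgE 4 of the 23 rose and 3 fell, against 15.9% and 14.2% of all tested genes, Gga2, an adaptor of mannose 6-phosphate receptors, rising from 3.54 to 4.95 FPKM (0.39, adjusted p = 0.000275).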

How the data were processed

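RNA of 9 libraries was analysed from 1 table, deposited by the authors, of FPKM per gene symbol. The submitters' processing notes name TopHat2 2.0.12, Bowtie 0.12.7 and mm9; which program made the FPKM, and with which annotation and strand setting, is not given in the sources used here. Groups came from the sample titles, which also matched the table's columns to samples. The members, lists and tests were chosen with earlier results of these data known. Zeros of antigen replicate 3 in X and Y genes were set to missing (145 symbols had no chromosome and were kept). Genes reaching 1 FPKM in 3 libraries or more were tested with limma 3.58.1 (R 4.3.3, trend prior) on log2(FPKM + 1), 1 coefficient per group over all 9 libraries, two-sided, with Benjamini-Hochberg adjustment over 10890 genes; fold changes are ratios of mean FPKM, and log2 changes understate those of low genes. The fit was tested on simulated data. Depth was estimated from the spacing of low values of 2966 single-transcript genes. Alternatives were other pseudocounts, filters, scalings and priors, fewer groups in the fit, a replicate block, zeros as deposited and each library left out. Values of every library are given for the 3 most abundant members, the 4 largest called rises and falls per comparison, Tfeb and Tfe3, X-linked members and members under the filter, and for some others; of other lists, up to 3 called genes with the smallest adjusted p are named. Exon overlaps were counted in GENCODE vM21, a newer annotation than mm9.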

Additional observations from a re-analysis of the deposited data

How the results depend on the processing

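Each of 21 alternatives changed 1 choice, or left out 1 library or a pair. Quantile normalization gave 9 rising and 16 falling genes from IgE to antigen (22 and 7 as reported), 5 falling from untreated to IgE (2 as reported) and 13 rising and 14 falling from untreated to antigen (23 and 9 as reported). The overall counts of the 10890 tested genes moved in the same direction, with 3331 rising and 4656 falling from IgE to antigen, against 4096 and 3944. Signs were compared for genes called with this scaling, without it or both. Under it the antigen versus IgE change was of opposite sign in Ctsa (-0.17), Ctse (-0.025), Ctsz (-0.053), Hexa (-0.16) and Gusb (-0.060). It was so as well in Npc2 (-0.17), Atp6v0b (-0.094), Atp6v0d1 (-0.075), Atp6v1d (-0.13) and Atp6v1e1 (-0.0059). Of all these, Ctsa, Hexa, Npc2 and Atp6v1d were called lower (adjusted p = 0.00142, 0.0024, 0.00131 and 0.0324). Against untreated the antigen change switched sign in Ctsa (-0.20), Ctsd (-0.0099), Hexa (-0.024), Npc2 (-0.29), Atp6ap1 (-0.35), Atp6v0b (-0.084), Atp6v0d1 (-0.017) and Atp6v1d (-0.16). Of these, Ctsa, Npc2, Atp6ap1 and Atp6v1d were called lower (adjusted p = 0.000474, 3.91e-05, 1.83e-05 and 0.0134). With the zeros of antigen replicate 3 kept, the X-linked Gla, Lamp2 and Tfe3 changed by -0.32, -2.00 and -0.40 against IgE. Against untreated they changed by -0.047, -1.96 and -0.46. The X-linked Atp6ap1, not called with or without the zeros, changed by -2.35 and -2.31. All these values follow from averaging in a 0. With no filter 4 genes fell from untreated to IgE. Leaving out 1 library at a time gave 21 to 23 rising and 7 to 8 falling from IgE to antigen, 6 to 13 and 2 to 3 from untreated to IgE, and 21 to 24 and 8 to 9 from untreated to antigen. The highest of these for the IgE step, 13, was without IgE replicate 3, where 2211 of all tested genes rose (1727 with it). Without it and antigen replicate 3 together 13 rose as well, and 2162 of all tested genes. The added calls included Ctsb, Ctsz, Asah1, Atp6v0d1 and Atp6v1c1. The change of Gaa from IgE to antigen ran from -0.093 without IgE replicate 2 to 0.095, the opposite sign, without IgE replicate 3. Without untreated replicate 3, 1020 of all genes fell from untreated to IgE (1546 with it). A replicate block gave 21 and 7, 9 and 2, and 23 and 9 in the 3 comparisons. Deviations from the group means correlated from -0.33 to 0.35 between libraries that share a number. Between libraries of different number they correlated from -0.35 to 0.24. With 3 libraries per group these values cannot decide whether the numbers pair the samples. With the block the adjusted p of Atp6v1e1 was 0.0548 from IgE to antigen and that of Tpp1 0.0494 from untreated to IgE. From IgE to antigen 7 of the 22 rises held under every alternative, Gla and Tfe3 held under all but zeros as deposited, and the 7 falls held under every alternative that tested them. Causes of these differences, where not stated, were not tested. At the estimated depth a transcript of 2 kb at 1 FPKM carries a counting error of 15.5% in the shallowest library, and shorter or rarer ones carry more.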

Other observations

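Autophagy delivers cytoplasm and organelles to the lysosome. Of 37 tested autophagy genes 19 rose and 8 fell from IgE to antigen, where 37.6% of all tested genes rose and 36.2% fell. The median log2 change of the 37 was 0.17. Under quantile normalization 15 rose and 10 fell, against 3331 and 4656 of all 10890 tested genes. Sqstm1, the p62 receptor that carries ubiquitinated cargo to autophagosomes, was at 462, 466 and 445 FPKM after IgE and 2029, 1990 and 1991 FPKM after antigen (log2 change of FPKM + 1 of 2.13, SE 0.0508, limma adjusted p = 1.09e-10). Tax1bp1, another cargo receptor, rose from 247 ± 18.1 to 915 ± 21.6 FPKM (1.88, adjusted p = 4.69e-10), and Gabarapl1, of the ubiquitin-like ATG8 family, from 134 ± 9.12 to 448 ± 16.7 FPKM (1.74, adjusted p = 5.8e-10). All 3 also rose under quantile normalization, by 1.83, 1.62 and 1.36. From untreated to IgE 1 of the 37 rose and 11 fell, where 15.9% of all tested genes rose and 14.2% fell, among them Atg7 (39.5 to 34.2 FPKM, -0.20, adjusted p = 0.00133), Calcoco1 (14.8 to 11.4 FPKM, -0.35, adjusted p = 0.00183) and Atg12 (23.4 to 19.9 FPKM, -0.22, adjusted p = 0.0025).

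The relatives of Tfe3 and the nutrient-sensing genes of the lysosome surface, from which mTORC1 signals, changed in both directions. From IgE to antigen 8 of 26 rose and 11 fell, near the 37.6% and 36.2% of all tested genes. Under quantile normalization 7 rose and 13 fell, against 3331 and 4656 of all 10890 tested genes. Lamtor3, of the Ragulator scaffold, rose from 47.3 ± 1.70 to 103 ± 1.57 FPKM (1.1, adjusted p = 2.24e-09) and Fnip2, a folliculin partner, from 8.67 ± 0.448 to 22.7 ± 0.850 FPKM (1.29, adjusted p = 3.25e-09). Sesn3, a sestrin that restrains mTORC1, fell from 10.8 ± 0.633 to 2.78 ± 0.348 FPKM (-1.64, adjusted p = 1.19e-08). Mitf, the member of the factor family with the highest level here, named after its values were seen, was at 73, 65.0 and 60.8 FPKM in the 3 group means, above Tfe3 in each.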
